A study of Homo sapiens with 4 samples.

Results

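The solute carriers described here are the membrane proteins that move sugars, amino acids, peptides, carboxylates, nucleosides, vitamins, fatty acids, bile acids and organic ions across cell membranes. Their genes were picked by name, from the families SLC1, SLC2, SLC5, SLC6, SLC10, SLC13, SLC15, SLC16, SLC17, SLC22, SLC23, SLC27, SLC28, SLC29, SLC36, SLC37, SLC38 and SLC43 and the organic anion transporting polypeptides (SLCO). The platform annotation gave 145 such genes a probe set with exactly 1 gene symbol, of 19775 genes named on the array. They had 302 probe sets of the 54675 on the array. The member SLCO4A1-AS1 is an antisense RNA that matches the name pattern and encodes no carrier.

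Expression was measured on 1 array of CD133+ cells and 1 array of CD133- cells, both sorted by flow cytometry from Huh7, an established human hepatocellular carcinoma line. CD133 is a pentaspan membrane protein, encoded by PROM1, used to mark liver cancer cells that can start tumours, and neither population received a treatment that the labels name. The authors deposited each array as RMA values, which are log2 values after background correction and quantile normalization, and as MAS5 signals on a linear scale. MAS5 is named wherever it was used, and all other values are RMA values. A difference is CD133+ minus CD133- on the log2 scale. The RMA and MAS5 columns of a population were taken to come from the same array, which the labels do not state outright. On that reading there was neither a replicate error nor a test, and each difference describes a pair of arrays only.

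Liver cells take up sugars, amino acids, bile acids and drugs through carriers of their sinusoidal membrane, and secrete bile through a separate apical membrane. Enterocytes and renal tubule cells take up luminal nutrients through a different set of apical carriers, most of them driven by sodium or protons. Carriers of the SLC2 and SLC29 families let their substrates equilibrate, whereas most of those of the SLC1, SLC5 and SLC6 families concentrate them with the help of ion gradients.

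The sort marker matched the labels, and the cells had hepatocyte markers. PROM1 had RMA values of 10.49 in CD133+ cells and 5.33 in CD133- cells. Of 7 hepatocyte markers 6 were measured and all 6 were detected, with a log2 summed level of 15.90 in both populations, and ALB (albumin) had values of 13.57 and 13.63 in CD133+ and CD133- cells. Single markers differed more than their sum, from -0.25 for APOB to 0.55 for TTR, with 2 higher and 4 lower in CD133+ cells. A gene counts as detected when its brighter RMA value exceeds a floor of 4.86, the median brighter value of the array's probe sets. Where a gene has several probe sets, the one with the highest mean stands for it (its representative). The SD of differences among probe sets of the same gene above this floor was 0.17 over 16955 pairs, which is the only technical spread these data give. It leaves out variation between sorts, cultures and hybridizations.

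Of the 145 carrier genes 101 were detected, which is 69.7%, against 65.2% of all named genes. Among the 101, 2 were at least 2-fold higher in CD133+ cells and 0 at least 2-fold lower, where 1.65% of the 12899 detected genes of the array were 2-fold higher and 0.116% were 2-fold lower. The carriers' share of 1.98% higher lay near that background. At least 1.5-fold, 6 carriers were higher (5.94%) and 0 were lower, against 3.67% and 1.01% of all detected genes. The median carrier difference was -0.02, and that of all detected genes was -0.01. By MAS5, 6 of 96 carriers above the MAS5 floor of 91.8 were 2-fold higher and 3 were 2-fold lower, with 4.47% and 1.71% as the shares among all genes above it. These MAS5 counts take signals as measured, also where the dimmer one lay below the MAS5 floor.

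Most carriers differed little, as did most detected genes of the array. Of the 101 detected carriers 93 differed by less than 0.5, which is 92.1%, against 93.8% of all detected genes. By less than the SD between probe sets differed 51 (50.5%), a share that was 62.1% over all detected genes. In 95 carriers both populations lay above the floor, in 3 only CD133+ cells did and in 3 only CD133- cells did. Of the 12899 detected genes of the array, 12392 lay above the floor in both. The 44 carriers below the floor differed by at most 0.49 in size. Among 183 genes of other SLC families, 136 were detected, with a median of 0.01. Of the 136, 5 were 2-fold higher (3.68%) and 0 were 2-fold lower. At least 1.5-fold, 8 of them were higher and 0 lower, so the lack of lower genes was not particular to the carriers described here. In sorted populations measured in bulk, a change in the number of cells that make an RNA and a change in the RNA per cell cannot be told apart.

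**Figure D1:**
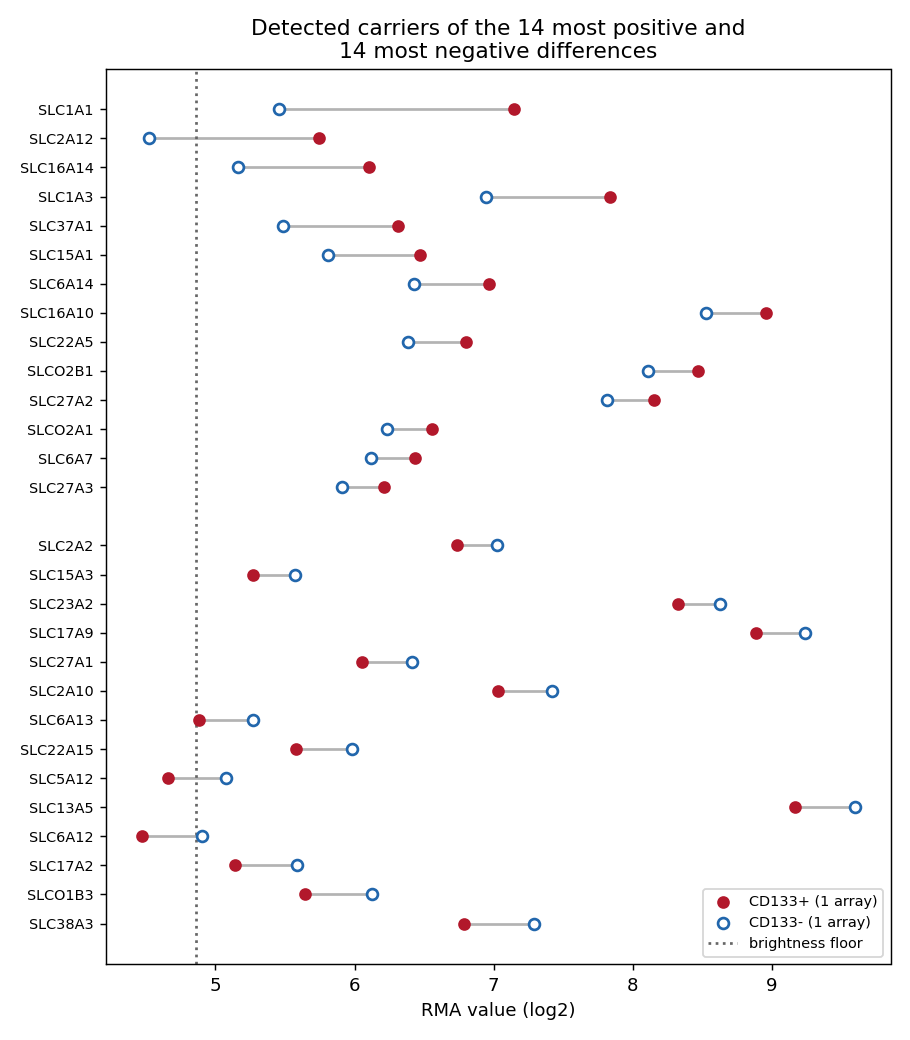
RMA values (log2, horizontal axis) of the 14 detected carriers of most positive and the 14 of most negative difference, with CD133+ cells as filled red points and CD133- cells as open blue points, 1 array each; the dotted line is the brightness floor of 4.86. The widest gap is that of SLC1A1, from which the upper genes shrink to about 0.30, while the widest gap among the lower genes is that of SLC38A3 with -0.50.

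SLC1A1, the sodium-driven glutamate, aspartate and cysteine carrier of kidney, intestine and neurons (EAAT3), had the largest difference of any detected carrier. Its RMA value was 7.15 in CD133+ cells and 5.46 in CD133- cells, a difference of 1.69 or 3.22-fold. The MAS5 signals were 637 in CD133+ and 228 in CD133- cells, 2.80-fold apart. Its difference ranked 68 from the top among all detected genes. The other SLC1A1 probe set went the same way by less, with 5.18 in CD133+ and 4.69 in CD133- cells, a difference of 0.49. SLC1A1 was the only carrier whose probe sets above the floor differed from each other by at least 1, among 41 carriers with several such probe sets.

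SLC2A12, which encodes the facilitative glucose carrier GLUT12, was the other carrier past 2-fold. Its RMA value was 5.74 in CD133+ cells and 4.52 in CD133- cells, a difference of 1.22. Because the CD133- value lay below the floor, the safer statement is that SLC2A12 was at least 1.85-fold higher. Its MAS5 signal was 153 in CD133+ cells and 21.6, below the MAS5 floor, in CD133- cells, which makes it at least 1.66-fold higher. Its other probe set lay below the floor in both populations with a difference of 0.38. SLC2A12 was the member just inside the 2-fold limit and SLC16A14, with a difference of 0.94, the member just outside it.

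The promoters of 4 carriers are shown because their genes lead the list and have 1 promoter entry in the RefSeq table of build GRCh38.p14, each 300 bases around the annotated gene start, 5′ to 3′ on the gene's strand. The array reads transcripts and not promoters, so these sequences give context only. Capitals mark the GC box (GGGCGG), the CCAAT box (CCAAT) and the TATA box (TATAAA), searched on both strands.
SLC1A1: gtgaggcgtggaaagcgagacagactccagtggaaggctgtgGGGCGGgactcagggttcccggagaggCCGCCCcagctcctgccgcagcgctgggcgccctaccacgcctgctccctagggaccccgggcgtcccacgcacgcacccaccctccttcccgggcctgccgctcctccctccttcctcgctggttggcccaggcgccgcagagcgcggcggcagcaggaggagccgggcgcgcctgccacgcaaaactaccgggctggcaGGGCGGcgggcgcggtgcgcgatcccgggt
SLC2A12: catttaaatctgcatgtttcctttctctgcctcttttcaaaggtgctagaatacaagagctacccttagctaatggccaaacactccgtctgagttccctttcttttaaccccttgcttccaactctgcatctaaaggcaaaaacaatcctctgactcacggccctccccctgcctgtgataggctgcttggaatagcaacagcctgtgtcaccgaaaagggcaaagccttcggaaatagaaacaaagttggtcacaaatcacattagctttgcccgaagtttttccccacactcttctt
SLC16A14: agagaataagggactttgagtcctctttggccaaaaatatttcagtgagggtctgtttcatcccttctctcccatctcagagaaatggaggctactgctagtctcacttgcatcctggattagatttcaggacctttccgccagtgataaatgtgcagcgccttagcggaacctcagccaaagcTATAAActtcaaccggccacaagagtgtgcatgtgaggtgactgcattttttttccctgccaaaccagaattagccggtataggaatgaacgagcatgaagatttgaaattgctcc
SLC15A1: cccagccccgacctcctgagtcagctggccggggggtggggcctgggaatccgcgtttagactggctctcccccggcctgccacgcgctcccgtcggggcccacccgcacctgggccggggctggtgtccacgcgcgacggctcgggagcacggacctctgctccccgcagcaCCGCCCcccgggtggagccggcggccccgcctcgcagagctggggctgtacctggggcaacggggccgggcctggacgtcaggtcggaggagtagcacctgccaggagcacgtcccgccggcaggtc
The windows are chr9:4490218-4490517 (plus strand) for SLC1A1, chr6:134052575-134052874 (minus strand) for SLC2A12, chr2:230068875-230069174 (minus strand) for SLC16A14 and chr13:98752623-98752922 (minus strand) for SLC15A1. The GC box occurred 3 times at SLC1A1 and 1 time at SLC15A1, the TATA box 1 time at SLC16A14, and SLC2A12 had none of these letters in its window. Among all 35116 RefSeq promoters, 45.0% held a GC box, 34.6% a CCAAT box and 11.5% a TATA box. Over the 109 promoters of the 81 detected carriers that matched the table the shares were 53.2%, 30.3% and 9.17%.

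Sugar carriers apart from SLC2A12 differed little. Of 10 detected SLC2 genes 6 were higher and 4 lower by any amount, with a median of 0.02, where 45.6% of all detected genes were higher and 51.1% lower by any amount. SLC2A2, the GLUT2 of hepatocytes, had RMA values of 6.74 in CD133+ and 7.03 in CD133- cells, and SLC2A1, the widespread GLUT1, had 6.70 and 6.85 in the same order. The lowest SLC2 difference was that of SLC2A10 (GLUT10), with 7.03 in CD133+ cells and 7.42 in CD133- cells. SLC2A8, an intracellular glucose carrier, differed by 0.10 on its representative and by -0.29 on its other probe set above the floor. SLC2A5, the fructose carrier GLUT5, differed by -0.06 by RMA and by 0.52 by MAS5. SLC2A3 and SLC2A4, which encode GLUT3 and the insulin-responsive GLUT4, lay below the floor.

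The sodium-coupled SLC5 family had 10 detected genes, and SLC5A5, the iodide carrier, was highest with 0.25. MAS5 gave SLC5A5 a difference of -0.21, with the CD133+ signal below the MAS5 floor. SLC5A12, a lactate carrier of kidney and gut, had 4.66, below the floor, in CD133+ cells and 5.08 in CD133- cells, at least 1.16-fold lower. SLC5A1 and SLC5A2, the glucose carriers SGLT1 and SGLT2, differed by 0.10 and 0.03. SLC5A6, the biotin and pantothenate carrier, had values of 8.37 in CD133+ and 8.60 in CD133- cells.

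Among the SLC37 exchangers of sugar phosphates, SLC37A1 was 1.77-fold higher. Its RMA value was 6.31 in CD133+ cells and 5.49 in CD133- cells, and its MAS5 signals were 250.4 and 141 in the same order. The other SLC37A1 probe set lay below the floor, with no difference. SLC37A4, the glucose 6-phosphate carrier of the endoplasmic reticulum that is lost in a form of glycogen storage disease, differed by -0.09. SLC37A2 and SLC37A3 differed by -0.15 and 0.02.

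Amino acid carriers contained the largest difference, in SLC1A1, but not a common direction. SLC1A3, the glial glutamate carrier EAAT1, was 1.85-fold higher, with RMA values of 7.83 in CD133+ and 6.94 in CD133- cells. Its MAS5 signals were 863 in CD133+ and 413 in CD133- cells, and its other probe set differed by 0.67, below the floor. The other 4 detected SLC1 genes were all slightly lower, and the lowest was SLC1A2 with -0.11. SLC1A5, the glutamine carrier ASCT2, differed by -0.01, and SLC1A4, the serine and alanine carrier ASCT1, by -0.05.

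The 12 detected SLC6 genes were split evenly, 6 higher and 6 lower. SLC6A14, a carrier of neutral and cationic amino acids in colon and lung, had RMA values of 6.96 in CD133+ and 6.42 in CD133- cells, a difference of 0.54. Its MAS5 signals of 750.4 in CD133+ and 415 in CD133- cells were 1.81-fold apart. SLC6A19, the neutral amino acid carrier of the brush border, differed by -0.14, SLC6A6, the taurine carrier, by 0.01, and SLC6A8, the creatine carrier, by 0.17. SLC6A12, the betaine carrier, had 4.47, below the floor, in CD133+ cells and 4.91 in CD133- cells, at least 1.03-fold lower. SLC6A13, a GABA carrier, differed by -0.39, with 4.88 in CD133+ and 5.27 in CD133- cells.

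Of 9 detected SLC38 genes 7 were lower and 2 higher, where 51.1% of all detected genes were lower and 45.6% higher. Of the lower ones SLC38A1, SLC38A2, SLC38A9, SLC38A10 and SLC38A11 differed by less than the SD of 0.17 between probe sets. So did SLC38A7 of the higher ones, whose probe sets above the floor ranged from -0.57 to 0.14. MAS5 gave SLC38A11 a difference of 0.26. SLC38A3, the system N glutamine carrier of hepatocytes, had the most negative difference of any detected carrier, with 6.79 in CD133+ and 7.29 in CD133- cells. Its MAS5 signals were 421 in CD133+ and 658 in CD133- cells, 1.56-fold lower in CD133+ cells. SLC38A2, the amino acid carrier SNAT2, differed by -0.06 on its representative, and all 3 of its probe sets lay between -0.06 and -0.02. SLC38A6 was highest of the family with 0.20. In SLC43, SLC43A1 (a carrier of large neutral amino acids) differed by -0.28, with 9.51 in CD133+ and 9.79 in CD133- cells, and SLC43A2, a relative with like substrates, by 0.24. SLC36A1, a proton-coupled carrier, and its relative SLC36A4 differed by 0.08 each.

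**Figure D2:**
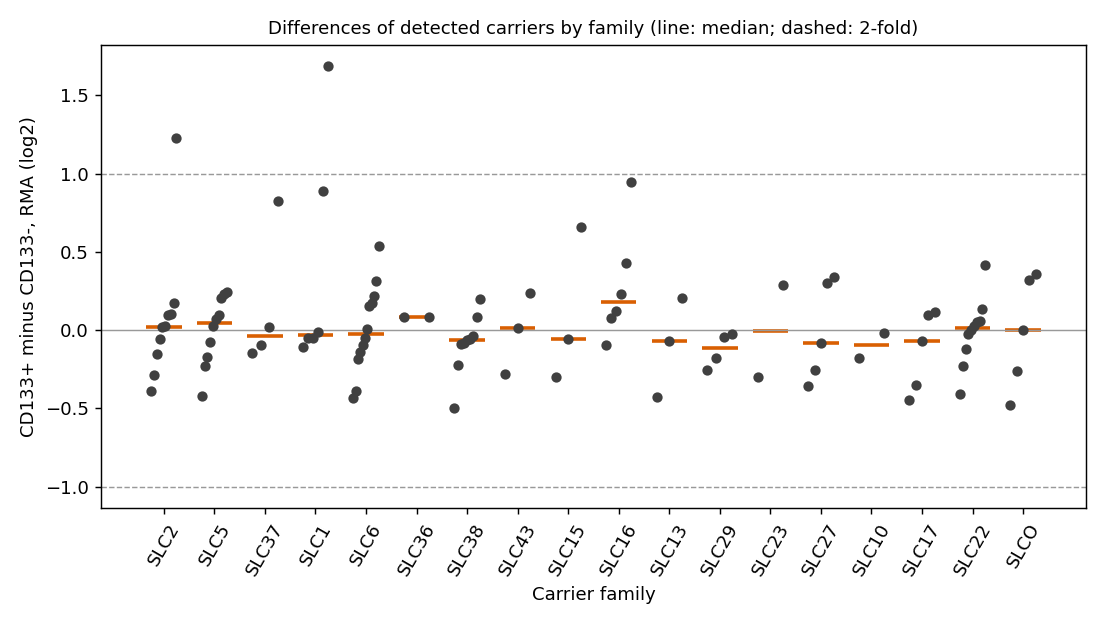
Difference CD133+ minus CD133- (RMA, log2, vertical axis) of each detected carrier, by family along the horizontal axis, with the family median as an orange line and 2-fold as dashed lines. Family medians lie between -0.11 in SLC29 and 0.18 in SLC16, and SLC1A1 and SLC2A12 are the points above the upper dashed line.

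Of the peptide carriers, SLC15A1 was 1.58-fold higher. SLC15A1 encodes PEPT1, the proton-driven carrier of dietary di- and tripeptides in the small intestine. Its RMA value was 6.47 in CD133+ cells and 5.81 in CD133- cells, and its MAS5 signals were 369 and 225 in the same order. The other SLC15A1 probe set differed by 0.19 and was dim, below the floor. SLC15A3 and SLC15A4, lysosomal carriers of peptides and histidine, differed by -0.30 and -0.05, and the renal PEPT2 gene SLC15A2 lay below the floor. MAS5 gave SLC15A3 a difference of 0.77, with both signals below the MAS5 floor.

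In the monocarboxylate carrier family, 5 of 6 detected genes were higher, against 45.6% of all detected genes, with a median of 0.18. SLC16A14, a member named here only by its family, had RMA values of 6.10 in CD133+ and 5.16 in CD133- cells, a 1.92-fold difference. Its MAS5 signals were 293 in CD133+ and 189 in CD133- cells. SLC16A10, the aromatic amino acid carrier TAT1, had 8.96 in CD133+ and 8.53 in CD133- cells, and its 3 probe sets differed by 0.43, 0.52 and 0.50. SLC16A7, the pyruvate and lactate carrier MCT2, differed by 0.12 on its representative and by -0.17 to 0.43 over its 4 probe sets above the floor. SLC16A9, a carnitine carrier, was the member that was lower, by -0.09.

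The carboxylate carrier SLC13A5, which brings citrate into hepatocytes, had RMA values of 9.17 in CD133+ and 9.60 in CD133- cells, a difference of -0.43. Its MAS5 signals were 2551 in CD133+ and 3559 in CD133- cells. SLC13A3 and SLC13A4 differed by -0.07 and 0.21. All 4 equilibrative nucleoside carriers (SLC29) were lower by small amounts on their representatives, from -0.25 for SLC29A2 to -0.02 for SLC29A1. Among all detected genes 51.1% were lower. The 5 SLC29A2 probe sets above the floor ranged from -0.25 to 0.12, and MAS5 gave SLC29A4 a difference of 0.10. The concentrative SLC28 carriers lay below the floor. The ascorbate carriers went opposite ways, SLC23A1 with 0.29 and SLC23A2 with -0.30, although MAS5 gave SLC23A1 a difference of -0.02.

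Fatty acid transport proteins likewise differed in direction. SLC27A2, a fatty acid carrier and very long chain acyl-CoA synthetase of liver and kidney, had values of 8.15 in CD133+ and 7.82 in CD133- cells, and both of its probe sets differed by 0.34. SLC27A5, the bile acyl-CoA synthetase, had 6.29 in CD133+ and 6.54 in CD133- cells, and its other probe set differed by 0.11. SLC27A1 was lowest with -0.36 by RMA, while its MAS5 signal was 66.8, below the MAS5 floor, in CD133+ cells and 215 in CD133- cells, at least 2.34-fold lower.

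Bile acid and organic ion carriers differed in both directions. SLC10A1, which encodes the hepatocyte bile acid carrier NTCP, lay below the floor with 3.07 in CD133+ and 3.12 in CD133- cells, as did the ileal bile acid carrier gene SLC10A2. SLCO1B3, which takes up bile acids and drugs into hepatocytes, had 5.64 in CD133+ and 6.12 in CD133- cells. Its MAS5 signals were 193 in CD133+ and 399 in CD133- cells, 2.06-fold lower in CD133+ cells.

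SLCO2B1, a carrier of sulfated steroids and drugs, went the other way, with 8.47 in CD133+ and 8.11 in CD133- cells, and its 3 probe sets differed by 0.36, 0.38 and 0.49. SLCO2A1, the prostaglandin carrier, differed by 0.32. SLCO4C1 was lower on both probe sets above the floor, by -0.26 and -0.66, but the MAS5 difference of the probe set at -0.66 was 0.42. SLCO1A2 and SLC22A14 had identical RMA values in both populations.

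In the SLC22 family 5 of 10 detected genes were higher and 4 lower. SLC22A5, the carnitine carrier OCTN2, had the highest difference, with 6.80 in CD133+ and 6.39 in CD133- cells, and SLC22A15 the lowest with -0.41. SLC22A9, an organic anion carrier of liver, differed by -0.12. SLC22A7, the liver carrier OAT2, differed by -0.03 on its representative and by up to 0.39 on its other probe sets above the floor. In SLC17, SLC17A2 had 5.14 in CD133+ and 5.58 in CD133- cells. SLC17A9, which loads ATP into vesicles, had 8.89 in CD133+ and 9.24 in CD133- cells and was lower on all 3 probe sets, from -0.35 to -0.16. SLC17A5, the lysosomal sialic acid carrier, differed by 0.10.

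The carriers were also grouped by organ, in lists chosen with earlier results of these data known. Counts within these lists are therefore descriptive only. Of 24 genes listed for intestinal or renal uptake 23 had a probe set of their own and 15 were detected, of which 10 were higher and 5 lower, with a median of 0.08. SLC1A1 (3.22-fold), SLC15A1 (1.58-fold) and SLC6A14 (1.45-fold) led the higher ones. Among the higher ones SLC5A1, SLC5A2, SLC22A8 and SLC36A1 differed by less than the SD of 0.17. So did SLC2A5, SLC6A19 and SLC27A4 among the lower ones. MAS5 gave a negative difference to SLC5A1, SLC5A9, SLC22A8 and SLC23A1, and a positive one to SLC2A5. In SLC5A1 and SLC22A8 both MAS5 signals lay below the MAS5 floor. By MAS5, 14 listed genes lay above the MAS5 floor, a set that is not the same as the 15. Of these 8 were higher and 6 lower, also with a median of 0.08. Of 18 genes listed for liver uptake 16 had a probe set of their own and 13 were detected, of which 3 were higher and 10 lower, with a median of -0.12. The list includes SLC37A4, a carrier of the endoplasmic reticulum and not of uptake into the cell. Of the lower ones SLC22A7, SLC22A9, SLC29A1 and SLC37A4 differed by less than the SD of 0.17, as did SLC2A9 of the higher ones. The higher ones were SLCO2B1, SLC27A2 and SLC2A9, the urate carrier, with MAS5 differences of 0.45, 0.06 and -0.30 in that order. None of the 13 reached 1.5-fold in either direction by RMA. Against these counts stand the 45.6% higher and 51.1% lower among all detected genes, and a median of -0.01. The SD of 0.17 between probe sets is that of single differences and does not measure the spread of a list median. With 1 array per population, the spread of these medians between sorts and arrays is not known. The liver median was -0.01 when probe sets that can match several transcripts were left out, with 5 higher and 6 lower. By MAS5 it was -0.20, over the 14 liver genes above the MAS5 floor.

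Enterocyte markers were measured beside these lists. Of 4 such markers 3 were detected and all 3 were higher: SI (sucrase-isomaltase) with 9.19 in CD133+ and 6.41 in CD133- cells, CDX2, an intestinal transcription factor, with 7.75 and 7.06, and VIL1 (villin) with 9.78 and 9.41, each in that order. FABP2, the intestinal fatty acid-binding protein, lay below the floor. The log2 summed level of the 4 markers was 10.72 in CD133+ cells and 9.82 in CD133- cells. Their part in the carrier differences was not tested. Of 3 bile duct markers, KRT19 was higher (10.54 in CD133+, 8.52 in CD133- cells), while KRT7 and SOX9 differed by 0.08 and -0.04. Of 4 blood markers 3 were detected and none was higher, and of 7 endothelial and stromal markers 3 were detected, with differences of at most 0.23.

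**Figure D3:**
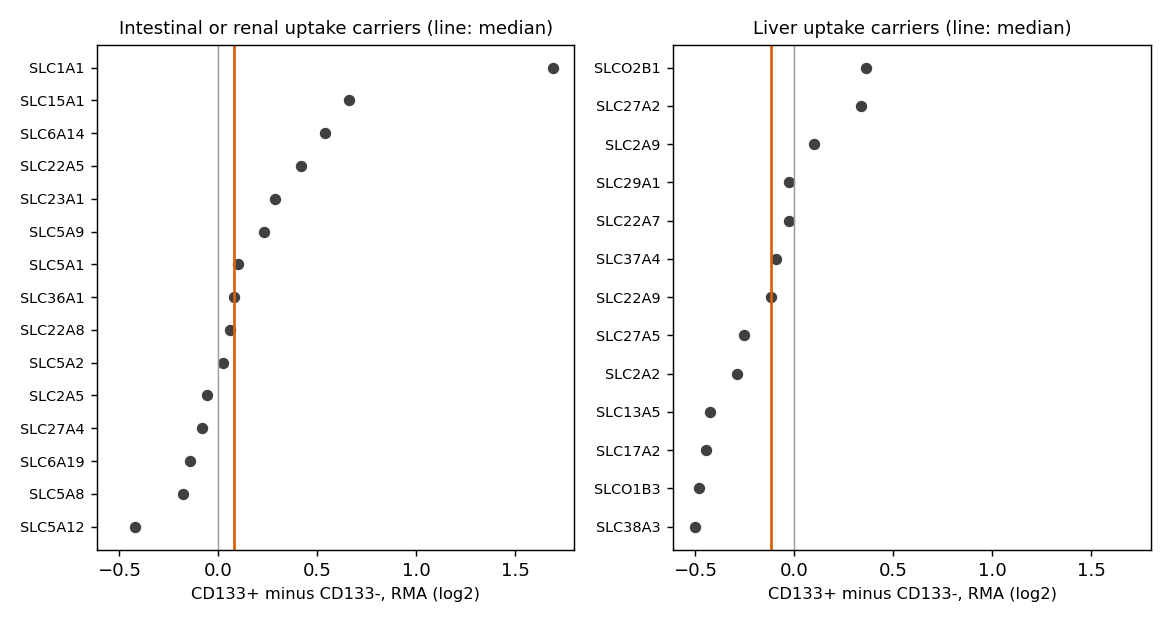
Difference CD133+ minus CD133- (RMA, log2, horizontal axis) of the detected carriers listed for intestinal or renal uptake (left, 15 genes) and liver uptake (right, 13 genes), with each list's median as an orange line at 0.08 and -0.12. SLC1A1 stands furthest to the right, and the 4 lowest liver carriers lie between -0.50 and -0.43.

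Companion genes, which chaperone carriers or handle what they bring in, were also measured. Their list was chosen with earlier results of these data known, so its counts are descriptive and not independent evidence. Of 35 listed genes 27 had a probe set of their own and 23 were detected, of which 13 were higher and 10 lower, with a median of 0.11, where 45.6% of all detected genes were higher and 51.1% lower. At least 1.5-fold, 5 were higher and 0 lower, against 3.67% and 1.01% of all detected genes. These were CKB, the brain-type creatine kinase (11.72 in CD133+, 10.97 in CD133- cells), PDZK1, a scaffold of apical carriers (7.87 and 7.20), TXNIP, which limits glucose uptake (8.72 and 8.09), SLC51A, a subunit of the basolateral bile acid carrier (8.09 and 7.49), and EMB (embigin), a chaperone of monocarboxylate carriers (6.81 and 6.22). KHK, the first enzyme of fructose breakdown, was lowest with -0.48. BSG (basigin), the other chaperone of monocarboxylate carriers, differed by 0.11, and the lactate dehydrogenase LDHA by -0.01.

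RMA and MAS5 placed most of these carriers alike, although both were taken to summarize the same arrays and are then not independent. Over the 88 carriers above both floors their differences had a Pearson's r of 0.76 across genes, and 63 had the same direction. All 6 carriers at least 1.5-fold higher by RMA were so by MAS5. Conversely 6 carriers were 2-fold changed by MAS5 and under 1.5-fold by RMA, 3 higher and 3 lower, where 3.55% of all genes above the MAS5 floor were of that kind. In all of them but SLCO1B3, which differed by -1.05 on the log2 MAS5 scale, the dimmer signal lay below the MAS5 floor. Against that floor SLC2A3, SLC16A8 and SLC6A9 were at least 1.07-fold, 1.16-fold and 1.08-fold higher. SLC6A18 and SLC27A1 were at least 1.17-fold and 2.34-fold lower. In SLC2A3 the MAS5 signals were 98.3 in CD133+ and 8.96 in CD133- cells, just above the MAS5 floor in CD133+ cells, and its other probe sets had RMA differences of -0.38 and -0.07.

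**Figure D4:**
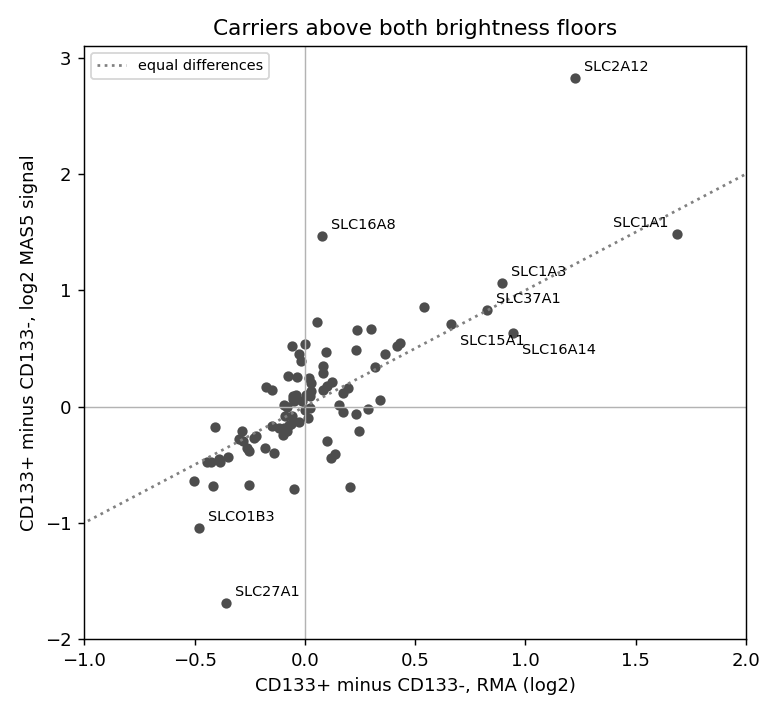
Difference CD133+ minus CD133- by RMA (log2, horizontal axis) and by MAS5 (log2 of the signal, vertical axis) for the 88 carriers above both brightness floors, each point 1 gene; the dotted line marks equal differences. SLC1A1 and SLC2A12 lie far to the upper right, and SLC16A8 and SLC27A1 lie off the dotted line; in SLC2A12, SLC16A8 and SLC27A1 the dimmer MAS5 signal was below the MAS5 floor of 91.8 and is drawn as measured.

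Probe sets limit several single values. In 21 of the 41 carriers with at least 2 probe sets above the floor, every such probe set went the same way. The matching share of all detected genes is not given here, so the count shows nothing particular to carriers. The SD among probe sets above the floor was 0.18 over 93 pairs in carriers, and 0.17 over 16955 pairs in all detected genes. SLC2A12, SLC16A14 and SLC37A1 were each read by a probe set of the kind that can match several transcripts, as were 30 of the 101 detected carriers.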

How the data were processed

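Trizol was used to extract total RNA of sorted Huh7 cells, which was then biotin-labelled, per the labels' protocols. The authors deposited 4 columns for 54675 probe sets, read here as 1 array per population summarized by 2 algorithms, which the labels do not state outright. MAS5 signal intensity is linear, deposited by the authors after a global scaling, with a mean after trimming 2% from each end of 500.1 on both arrays. The submitters' processing notes name MAS5 and GCOS. RMA values are log2 values, per the labels, and range from 1.33 to 14.2. Neither the RMA software nor the set of arrays it normalized is given in the sources used here. A global shift would be hidden by quantile normalization, and the number of arrays limits the precision.

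The platform annotation gave 41097 probe sets exactly 1 symbol, 1801 several and 11777 none, and 41043 matched a GRCh38.p14 gene by Entrez number. Genes without a probe set of their own were not analysed here. The gene with its probe set of highest mean RMA was compared by difference. The counting was tested on simulated data (Python 3.11.15, pandas 2.3.3). Members, lists, motifs and the fold limits were chosen with earlier results of these data known. Named genes are carriers at least 2-fold or, by both algorithms, 1.5-fold changed, the extremes and the gene of highest mean value of each family, members of the organ lists, carriers whose probe sets or algorithms disagree, and changed companion genes. Other members, chosen after their values were seen, are named for what they carry. 8 alternatives were tried.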

Additional observations from a re-analysis of the deposited data

How the results depend on the processing

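The count of 2 carriers at least 2-fold higher and 0 lower became 6 and 3 with MAS5 in place of RMA. It was 1 higher and 0 lower with the mean over probe sets, without probe sets of shared suffix, with both populations above the floor, and with the brighter value above 6.79. Carriers higher made up 0.99%, 1.20%, 1.05% and 2% in that order, against 1.17%, 1.49%, 1.13% and 1.46% of all genes. SLC2A12 was the gene lost in each of these 4 settings. Its difference was 0.80 over its probe sets and 0.38, below the floor, without shared ones, its CD133- value lay below the floor, and its CD133+ value of 5.74 below 6.79. SLC1A1 stayed at least 2-fold higher in all 8 alternatives, from 1.09 with the mean over probe sets to 1.70 when centred. SLC37A1 differed by 0.41 over its probe sets and by 0.00 without shared ones, and SLC15A1 by 0.43 over its probe sets. The median carrier difference lay between -0.03 and 0.05. Without a floor, when centred on the median of all detected genes, and when 2-fold was asked of both algorithms, the counts were again 2 and 0. The share of carriers higher was then 1.38%, 1.98% and 1.98%, against 1.16%, 1.67% and 1.51% of all genes, in that order. Medians of the organ lists, an alternative chosen after seeing the data, ranged from -0.20 to -0.01 for liver uptake and from 0.06 to 0.25 for intestinal or renal uptake. No paired analysis was possible because each population was read as 1 array. Signals near the floor limit SLC2A12, SLC2A3 and the dim carriers most.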
